A study of Ovis aries with 30 samples.

Results

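Liver mRNA of 36 genes was followed in 30 lambs: the enzymes that make glucose from propionate, lactate and amino acids, the enzymes that break down alanine, serine, glycine, tyrosine, tryptophan, histidine, proline and lysine, and 3 regulators of these pathways. The genes were listed by name, for their roles in these pathways, with earlier results of these data known. All 36 are rows of the table of 31304 genes, and 35 were tested among 17840 genes that passed a filter on low counts. The exception, SLC37A4, had no count in any library and is described with the glucose-releasing enzymes.

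The lambs were the first generation born to ewes exposed to biosolids, processed sewage sludge that carries a mixture of environmental chemicals, before conception and during pregnancy, or to control ewes. There were 8 biosolids females, 8 control females, 7 biosolids males and 7 control males, and each library came from the frozen liver of 1 tagged animal. Exposure was prenatal in every biosolids lamb, while breed, age at sampling and dam are not given in the sources used here. The design asks whether exposure altered the liver transcriptome, in each sex.

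A ruminant absorbs little glucose, because microbes in the rumen ferment carbohydrate to short-chain fatty acids, and its liver therefore makes glucose continuously. Propionate is the main precursor: it is carboxylated, rearranged to succinyl-CoA in a step that needs vitamin B12, and reaches oxaloacetate through the citric acid cycle. Lactate and alanine enter as pyruvate, and other amino acids as citric acid cycle intermediates. All routes meet at phosphoenolpyruvate carboxykinase, and fructose-1,6-bisphosphatase and glucose-6-phosphatase complete the path.

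Library totals were 24.1 to 42.8 mega-counts in biosolids females, 29.8 to 39.1 in control females, 18.7 to 43.3 in biosolids males and 32.7 to 51.9 in control males. One library stood apart: biosolids male 8778 had 87.5% of its counts on ribosomal RNA and 2.34 mega-counts on all other genes, against 0.299% to 7.69% ribosomal RNA in the other 29 libraries. The lowest share was that of control male 8364, and the next lowest was 2.43%. Control female 8263 had the lowest level of all 30 lambs for 8 of the 35 tested genes (PCK2, FBP1, PC, PCCA, MMUT, GOT2, GLDC and FAH) and the highest for SDS and TDO2. Estimates of several genes are therefore also given without one of these lambs. ALB, the hepatocyte gene for serum albumin, lay between 30009 and 72827 CPM in the 30 livers (counts scaled to library size), with a median of 51640 CPM.

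Per unit of gene length, most of these genes were among the most abundant transcripts of the lamb liver. Levels were compared between genes in RPKM, which scales counts for exon length and library size. Of 35 genes, 27 lay above the 90th percentile of all genes tested, and the lowest, GPT, lay at the 53.5th percentile. HPD, the 4-hydroxyphenylpyruvate dioxygenase of tyrosine breakdown, had the highest level at 1296 ± 293 RPKM (SD, n = 30). FBP1, fructose-1,6-bisphosphatase, followed with 893 ± 143 RPKM, and PCK1, the cytosolic phosphoenolpyruvate carboxykinase, with 690 ± 279 RPKM (SD, n = 30 each). At the other end were PPARGC1A, a transcriptional coactivator of gluconeogenesis, with a mean of 4.02 RPKM, and GPT with 2.33 RPKM.

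**Figure D1:**
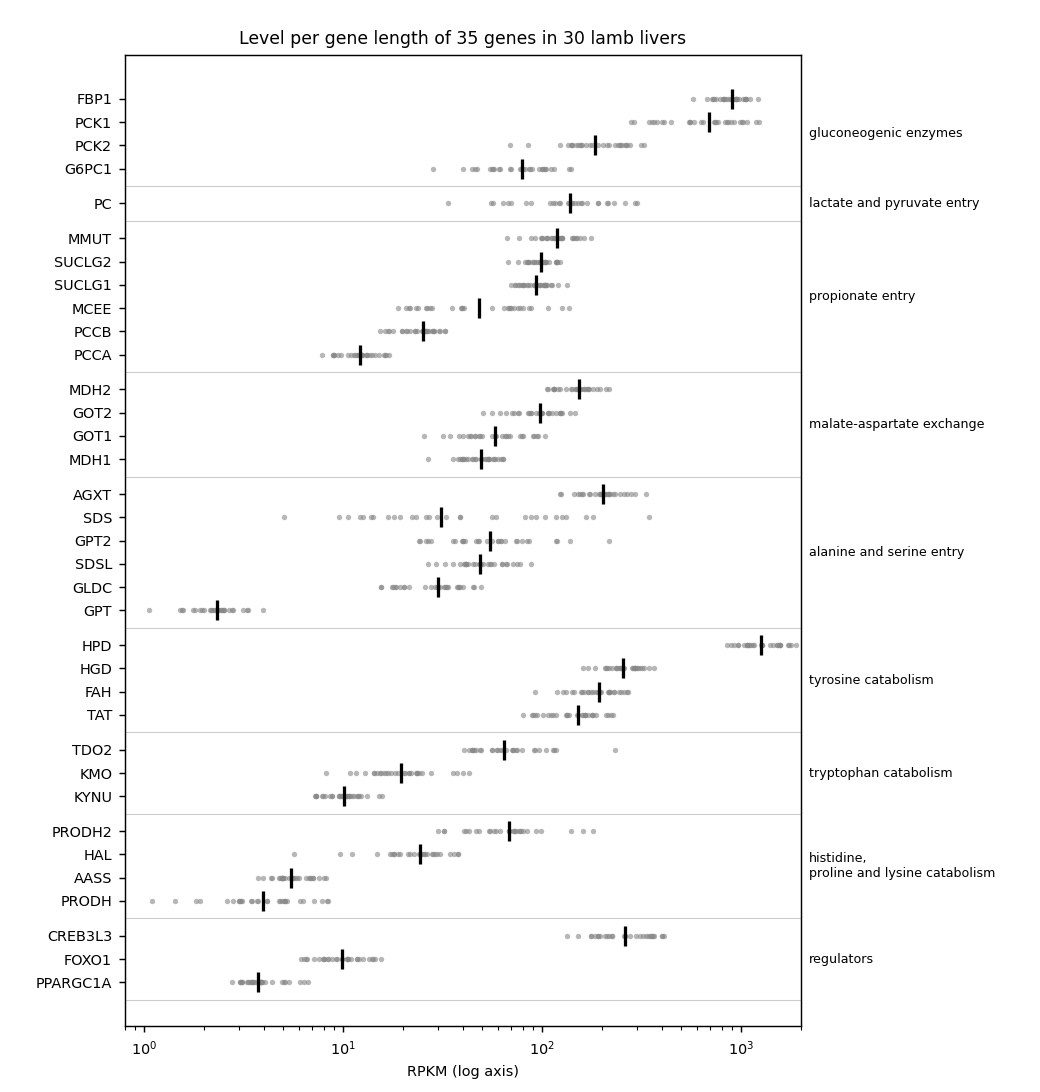
Level of each of the 35 tested genes in RPKM on a log axis, with 1 grey point for each of 30 lambs and a black bar at the median, grouped by role. HPD, FBP1 and PCK1 have the highest means, and SDS has the widest range, with its highest lamb 68.3 times its lowest.

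The genes differed widely in how far lambs of the same group varied. SDS, the serine dehydratase that turns serine into pyruvate, had a within-group SD of 1.43 on the log2 CPM scale, at the 98.5th percentile of all genes tested, and its highest lamb lay 68.3-fold above its lowest. MCEE (0.83), GPT2 (0.79), PC (0.76) and PRODH (0.74) followed in within-group SD. The steadiest were SUCLG2 (0.20, at the 7.15th percentile), FBP1 (0.24) and SUCLG1 (0.24). Genes at the entry of a route were not alike in spread, as PCCA had 0.27, AASS 0.30, SDSL 0.40 and TAT 0.44. The median within-group SD of the 35 genes was 0.397, against 0.42 over all genes tested, and 19 of 35 lay below that median.

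Pairs of isoenzymes had different leading partners, given here as ratios of RPKM. PCK1 exceeded PCK2, the mitochondrial carboxykinase, in all 30 lambs, by 2.01-fold to 8.03-fold with a median of 3.23-fold. GPT2, the mitochondrial alanine aminotransferase, exceeded cytosolic GPT in all 30 lambs, by 7.25-fold to 143-fold. PRODH2, which oxidises hydroxyproline, exceeded the proline dehydrogenase PRODH by 3.63-fold to 147-fold. On this scale the order of the partners in each of these pairs was the same in every liver. The ratios rest on the annotated exon lengths, which are 1575 bases for PRODH2 and 5819 bases for PRODH. Before scaling for length, biosolids female 8649 had 47.5 CPM for PRODH2 and 48.4 CPM for PRODH.

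The order was not fixed for SDS and SDSL, its serine dehydratase-like neighbour on chromosome 17. SDS lay above SDSL in 12 of 30 lambs, and the ratio of SDS to SDSL ran from 0.155 in biosolids male 8770 to 4.80 in control female 8263. SUCLG2 and SUCLG1, which encode the GDP-specific beta subunit and the shared alpha subunit of succinyl-CoA ligase, had a median ratio of 1.06. PCCB to PCCA, the beta and alpha subunits of propionyl-CoA carboxylase, had a median ratio of 1.97, above 1 in all 30 lambs. This order also rests on the annotated exon lengths, 4175 bases for PCCB and 6869 bases for PCCA.

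None of the 35 genes passed an adjusted p of 0.05 under exposure. This held in females, in males, over both sexes and for the interaction, which is the effect in males minus the effect in females (edgeR quasi-likelihood test, Benjamini-Hochberg adjustment over all 17840 genes). The background was as low: 0% of all genes passed in each of these 4 comparisons. At an unadjusted p under 0.05, 0 of 35 passed in females, against 3.65% of all genes, and 1 of 35 in males, against 5.44%. Over both sexes 0 of 35 passed, against 4.3% of all genes, and for the interaction 1 of 35 passed, against 3.63%. The single gene was KYNU in both cases. DESeq2 called 0 of the 35 in each comparison, beside 4 of all genes in males, 4 over both sexes and 1 in the interaction, and limma voom with sample weights called 0 of the 35.

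The intervals bound the size of a change that could have been missed. In females, the 95% interval of the log2 fold change lay within -1 to 1 for 34 of 35 genes, against 80.4% of all genes, the exception being SDS. In males it did for 31 of 35, against 74.8% of all genes, the exceptions being SDS, GPT2, PC and MCEE. Over both sexes it did for 34 of 35, against 90.4%, SDS again excepted. For the interaction it did for 20 of 35, against 59% of all genes. In females 22 of the 35 estimates were higher in biosolids than in control lambs and 13 lower. Their median log2 fold change was 0.04, where 54.1% of all genes were lower. Leaving out 1 control female moved this split both ways. It was 17 higher and 18 lower without lamb 8263, and 26 higher and 9 lower without lamb 8245. In males 13 were higher and 22 lower, with a median of -0.10, where 48.7% of all genes were lower.

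**Figure D2:**
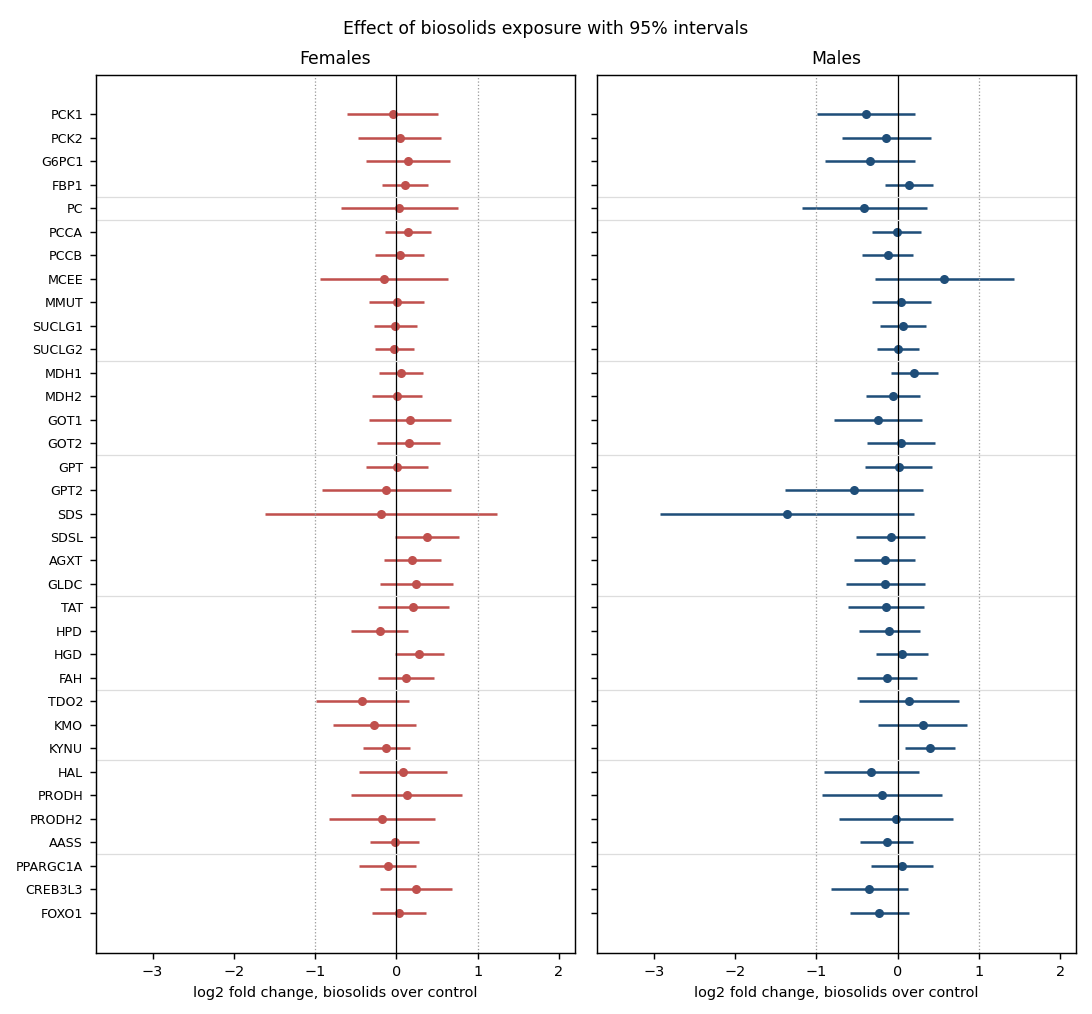
Log2 fold change of biosolids over control lambs for each of the 35 genes, females on the left and males on the right, with 95% intervals from the edgeR fit, and dotted lines at -1 and 1. In males SDS has the lowest estimate at -1.36 and the widest interval, and the interval of KYNU, at 0.40, lies above 0.

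The glucose-forming enzymes came first. PCK1 (chromosome 13, 58272493 to 58278624, assembly ARS-UI_Ramb_v3.0) commits oxaloacetate to glucose synthesis. It lay between 753 and 2400 CPM in biosolids females (median 1240) and between 943 and 2317 CPM in control females (median 1440). In males it lay between 725 and 3078 CPM in biosolids lambs (median 1896) and between 1499 and 3190 CPM in control lambs (median 2566). The groups overlapped in both sexes, and the lowest male value was that of lamb 8778. Fold changes were -0.04 ± 0.28 on the log2 scale in females (SE; 95% interval -0.61 to 0.52) and -0.39 ± 0.29 in males (-0.99 to 0.22). Without lamb 8778 the estimate in males was -0.25 ± 0.28.

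PCK2 had a narrower spread of medians. Its medians were 380 CPM in biosolids females and 368 CPM in control females, within ranges of 271 to 610 and 153 to 724 CPM. In males its median was 335 CPM in biosolids lambs (309 to 698) and 515 CPM in control lambs (299 to 593). Fold changes were 0.04 ± 0.25 in females and -0.14 ± 0.27 in males on the log2 scale (SE), and -0.08 ± 0.23 in females without lamb 8263, the lowest control. FBP1, whose product removes the 1-phosphate of fructose 1,6-bisphosphate, was steady throughout, with log2 fold changes of 0.11 ± 0.14 and 0.14 ± 0.15.

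G6PC1, the catalytic subunit of glucose-6-phosphatase that releases free glucose, lay between 170 and 487 CPM in biosolids females (median 344) and between 189 and 576 CPM in control females (median 249). It lay between 120 and 437 CPM in biosolids males (median 331), the lowest again lamb 8778, and between 259 and 595 CPM in control males (median 423). All groups overlapped. Exposure gave a log2 fold change of 0.14 ± 0.25 in females and -0.34 ± 0.27 in males (SE), and their difference, -0.49 ± 0.37, did not pass (adjusted p = 0.951, edgeR quasi-likelihood test). Without lamb 8778 the estimate of G6PC1 in males was -0.20 ± 0.25.

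SLC37A4, the transporter that carries glucose 6-phosphate to the phosphatase, was listed at 0 in all 30 libraries. The gene lies at 29324281 to 29329496 on the minus strand of chromosome 15 (ARS-UI_Ramb_v3.0), and 100% of its annotated exonic bases are shared with exons of TRAPPC4 on the opposite strand. In the same table, 147 of 147 protein-coding genes whose exonic bases are all shared with another gene were at 0 in all 30 libraries, 44 of them sharing bases only with the opposite strand. Among protein-coding genes that share no exonic base, 1581 of 17076 (9.26%) were at 0 throughout. The value of SLC37A4 was therefore not read as a level of its mRNA. Among the other 35 genes only PCCA (2.62% of exonic bases) and SUCLG2 (4.41%) share bases with another gene, on the opposite strand in both cases.

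Propionate entry had small estimates under exposure, MCEE apart. PCCA and PCCB carboxylate propionyl-CoA, MCEE epimerises methylmalonyl-CoA, MMUT, the B12-dependent mutase, forms succinyl-CoA, and the succinyl-CoA ligase subunits act next. PCCA had medians of 77.3 CPM in biosolids females (60.9 to 110) and 75.3 CPM in control females (53.7 to 90.7). In males its medians were 89.2 CPM in biosolids lambs (61.4 to 116) and 90.5 CPM in control lambs (83.5 to 113). Its exposure estimate was 0.14 ± 0.14 (log2, SE) in females (95% interval -0.14 to 0.43) and -0.01 ± 0.15 in males (-0.32 to 0.29). Without lamb 8263, the lowest control female, it was 0.09 ± 0.14 in females.

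MMUT was as even. It had medians of 318 CPM in biosolids females (214 to 455), 324 CPM in control females (187 to 416), 348 CPM in biosolids males (258 to 434) and 338 CPM in control males (247 to 495). Its log2 fold change was 0.00 ± 0.17 in females (95% interval -0.34 to 0.34) and 0.04 ± 0.18 in males (-0.32 to 0.41), and -0.08 ± 0.16 in females without lamb 8263. PCCB, SUCLG1 and SUCLG2 had estimates between -0.12 and 0.07 in both sexes.

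MCEE was the exception in spread. It ranged from 21.6 to 89.0 CPM in biosolids females, from 19.8 to 114 CPM in control females, from 15.6 to 104 CPM in biosolids males and from 17.1 to 55.9 CPM in control males. Its log2 fold change in males, 0.58 ± 0.42 (SE), was 0.24 ± 0.40 without lamb 8778, which had the highest level among biosolids males. The 9 genes of cobalamin and propionyl cofactor handling, a separate list, had medians of -0.04 in females and 0.02 in males. At an unadjusted p under 0.05 there were 0 of 9 in either sex. The share of all genes was 3.65% in females and 5.44% in males, so a count of 0 among 9 lay near the background.

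Lactate and pyruvate enter through PC, pyruvate carboxylase. PC lay between 724 and 1474 CPM in biosolids females (median 1233) and between 295 and 2632 CPM in control females (median 875), where lamb 8263 was the lowest and lamb 8245 the highest. It lay between 593 and 2004 CPM in biosolids males (median 1066) and between 608 and 2569 CPM in control males (median 1668). Control females thus spanned the whole range of the biosolids females. Log2 fold changes were 0.04 ± 0.35 in females (95% interval -0.68 to 0.76) and -0.41 ± 0.38 in males (-1.18 to 0.36). The female estimate of PC had no stable direction, at -0.10 ± 0.33 without lamb 8263 and 0.33 without lamb 8245. Beside PC, MPC1, a subunit of the mitochondrial pyruvate carrier and 1 of 10 genes in a list of lactate, pyruvate and glycerol handling, had a log2 fold change of 0.52 ± 0.23 over both sexes (unadjusted p = 0.0331, adjusted p = 0.943, edgeR quasi-likelihood test). In that list AQP9, the glycerol channel, had -0.32 ± 0.21.

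The enzymes that carry oxaloacetate equivalents across the mitochondrial membrane, malate dehydrogenases MDH1 and MDH2 and aspartate aminotransferases GOT1 and GOT2, had small estimates. They ran from 0.01 to 0.17 in females and from -0.25 to 0.21 in males on the log2 scale. MDH1, the cytosolic malate dehydrogenase, had one of the 3 smallest p-values over both sexes, with 0.13 ± 0.10 (SE). It lay between 55.3 and 82.4 CPM in biosolids females (median 68.3), 48.9 and 82.7 CPM in control females (66.9), 46.5 and 80.6 CPM in biosolids males (60.3), and 34.9 and 68.2 CPM in control males (51.4).

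SDS, which opens the route from serine, had the largest estimate under exposure, in males. It lay between 7.87 and 137 CPM in biosolids males (median 28.1) and between 40.7 and 198 CPM in control males (median 88.0). Of 7 biosolids males, 6 lay below the lowest control male, with values up to 34.6 CPM, and the exception at 137 CPM was lamb 8778, whose library was mostly ribosomal RNA. The log2 fold change was -1.36 ± 0.76 (SE; 95% interval -2.93 to 0.21; unadjusted p = 0.086, adjusted p = 0.816, edgeR quasi-likelihood test). Without lamb 8778 the biosolids and control males did not overlap for SDS, alone among the 35 genes, where 0.101% of all genes did not overlap. That overlap count was chosen after the data were seen. Its log2 fold change was then -2.08 ± 0.77 (unadjusted p = 0.0121), and the adjusted p, over all genes, was 0.995.

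In females the groups overlapped for SDS. It lay between 26.5 and 259 CPM in biosolids females (median 98.5) and between 14.9 and 538 CPM in control females (median 41.3), where the highest was lamb 8263 and the next 283 CPM. The log2 fold change was -0.19 ± 0.69 (SE), and its direction was not stable: it was 0.61 ± 0.66 without lamb 8263, 0.05 without control female 8245 and 0.93 with limma voom and sample weights. The interaction of exposure and sex for SDS was -1.17 ± 1.03 (SE, adjusted p = 0.951, edgeR quasi-likelihood test). Between biosolids males and biosolids females the difference was -1.64 ± 0.75 (unadjusted p = 0.0385, adjusted p = 0.969) and, without lamb 8778, -2.37 ± 0.77 (adjusted p = 0.71). It was 1 of 35 genes at an unadjusted p under 0.05 in that comparison, against 4.85% of all genes.

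SDSL, which encodes a relative of serine dehydratase, had the smallest p of the 35 genes in females. It lay between 46.4 and 114 CPM in biosolids females (median 78.3), against 34.8 to 92.9 CPM in control females (median 58.3), and 7 of 8 biosolids females lay above the control median. This gave a log2 fold change of 0.38 ± 0.19 (SE; unadjusted p = 0.0585, adjusted p = 1, edgeR quasi-likelihood test). In males it lay between 42.1 and 96.5 CPM in biosolids lambs and between 53.2 and 81.7 CPM in control lambs, with -0.09 ± 0.21. The other genes of alanine, serine and glycine entry, GPT, GPT2, AGXT (alanine-glyoxylate aminotransferase) and GLDC (the decarboxylase of the glycine cleavage system), had estimates between -0.12 and 0.25 in females and between -0.54 and 0.02 in males.

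Tyrosine breakdown runs from TAT, tyrosine aminotransferase, through HPD and HGD, homogentisate dioxygenase, to FAH, fumarylacetoacetate hydrolase, and yields fumarate and acetoacetate. TAT had medians of 403 CPM in biosolids females (188 to 533), 342 CPM in control females (212 to 423), 275 CPM in biosolids males (216 to 522) and 353 CPM in control males (237 to 495). Its log2 fold change was 0.21 ± 0.21 in females and -0.14 ± 0.23 in males (SE). HGD had the smallest p over both sexes, with 0.17 ± 0.11 (unadjusted p = 0.129, adjusted p = 0.943, edgeR quasi-likelihood test). All 8 biosolids females, at 400 to 593 CPM (median 467), lay above the median of the control females, which was 393 CPM within 261 to 489 CPM. In males HGD lay between 339 and 515 CPM in biosolids lambs (median 380) and between 299 and 523 CPM in control lambs (median 392).

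Tryptophan breakdown held KYNU, the gene with the smallest p under exposure in males. KYNU (chromosome 2, 167108348 to 167230918) encodes kynureninase, TDO2 encodes the dioxygenase that opens the indole ring, and KMO encodes kynurenine 3-monooxygenase. KYNU lay between 81.7 and 131 CPM in biosolids males (median 89.6) and between 60.2 and 101 CPM in control males (median 67.4). All 7 biosolids males lay above the control median. Only control male 8364, at 101 CPM, reached into the biosolids range, and the next control male had 73.9 CPM. KYNU thus had a log2 fold change of 0.40 ± 0.15 (SE; 95% interval 0.09 to 0.70; unadjusted p = 0.0131, adjusted p = 0.816, edgeR quasi-likelihood test). It was 0.30 ± 0.15 without lamb 8778, the highest biosolids male, and 0.50 ± 0.15 without lamb 8364.

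In females KYNU lay between 65.1 and 103 CPM in biosolids lambs (median 80.3) and between 61.3 and 126 CPM in control lambs (median 91.4), with a log2 fold change of -0.12 ± 0.14. The interaction was 0.52 ± 0.21 (unadjusted p = 0.0172, adjusted p = 0.951, edgeR quasi-likelihood test). TDO2 and KMO had estimates of the same signs, with none at an unadjusted p under 0.05. TDO2 had -0.42 ± 0.28 in females and 0.14 ± 0.30 in males, and KMO had -0.27 ± 0.25 and 0.31 ± 0.27 (SE). Their interactions were 0.56 ± 0.41 and 0.58 ± 0.37. The female estimate of TDO2 was -0.08 ± 0.25 without lamb 8263, whose 881 CPM was the highest of all lambs. The rest of the control females lay between 211 and 429 CPM, and biosolids females between 177 and 365 CPM.

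TDO2 in males lay between 162 and 434 CPM in biosolids lambs (median 225) and between 152 and 447 CPM in control lambs (median 185). KMO lay between 83.3 and 231 CPM in biosolids females (median 101), 59.0 and 218 CPM in control females (123), 69.8 and 150 CPM in biosolids males (102), and 44.4 and 130 CPM in control males (80.4). The groups overlapped in both sexes for both genes. AFMID, the kynurenine formamidase between TDO2 and KMO, belongs to a separate list of 25 tested genes of amino acid catabolism. It had -0.38 ± 0.17 over both sexes (unadjusted p = 0.0281, adjusted p = 0.943, edgeR quasi-likelihood test). By sex, AFMID had -0.61 ± 0.23 in females and -0.16 ± 0.24 in males (SE). In the same list ALDH4A1, an aldehyde dehydrogenase of proline breakdown, had -0.34 ± 0.19 over both sexes.

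The remaining catabolic enzymes were HAL, the histidine ammonia-lyase, PRODH and PRODH2, and AASS, the bifunctional first enzyme of lysine breakdown. Their log2 fold changes ran from -0.18 to 0.13 in females and from -0.32 to -0.02 in males, with no unadjusted p under 0.05. HAL lay between 57.5 and 205 CPM in biosolids females, 65.8 and 227 CPM in control females, 33.9 and 166 CPM in biosolids males, and 108 and 227 CPM in control males.

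The 3 regulators were FOXO1, a transcription factor that insulin signalling keeps out of the nucleus, CREB3L3, a liver transcription factor responsive to fasting, and PPARGC1A. CREB3L3 had medians of 604 CPM in biosolids females (367 to 719) and 446 CPM in control females (263 to 700). In males its medians were 420 CPM in biosolids lambs (299 to 809) and 706 CPM in control lambs (431 to 796). Its log2 fold change was 0.25 ± 0.22 in females and -0.35 ± 0.23 in males, with an interaction of -0.60 ± 0.32 (unadjusted p = 0.0709, adjusted p = 0.951, edgeR quasi-likelihood test). Without lamb 8778, the lowest biosolids male, CREB3L3 had -0.26 ± 0.23 in males. PPARGC1A had medians of 28.8 CPM in biosolids females (22.5 to 37.9), 26.7 CPM in control females (24.4 to 49.5), 28.6 CPM in biosolids males (22.9 to 39.6) and 26.6 CPM in control males (20.6 to 45.3). Its log2 fold changes were -0.10 ± 0.17 in females and 0.05 ± 0.19 in males.

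Cell type markers were set beside these values, and 0 of them passed under exposure. The log2 fold change was negative for 10 of 10 tested hepatocyte markers in males (median -0.24) and for 6 of 10 in females (median -0.03). In males 0 of these 10 had an unadjusted p under 0.05, against 5.44% of all genes. Their summed level lay between 69198 and 117800 CPM in biosolids males and between 94921 and 124940 CPM in control males. T and NK cell markers had negative estimates for 6 of 6 in each sex (medians -0.45 in females and -0.18 in males). Stellate cell and fibroblast markers had positive estimates for 8 of 8 in females (median 0.30) and 3 of 8 in males (median -0.17). Cholangiocyte markers had positive estimates for 7 of 8 in females and 6 of 8 in males. Over both sexes 6 of 8 were higher and 2 lower, with estimates from -2 to 3.02 (median 0.54). Of these 8, 5 had an unadjusted p under 0.05, against 4.3% of all genes. Macrophage markers had medians of -0.21 in females and -0.07 in males, and endothelial markers -0.03 and -0.01. Their part in the results was not tested. In bulk liver, fewer cells of a type and less RNA per cell cannot be told apart.

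**Figure D3:**
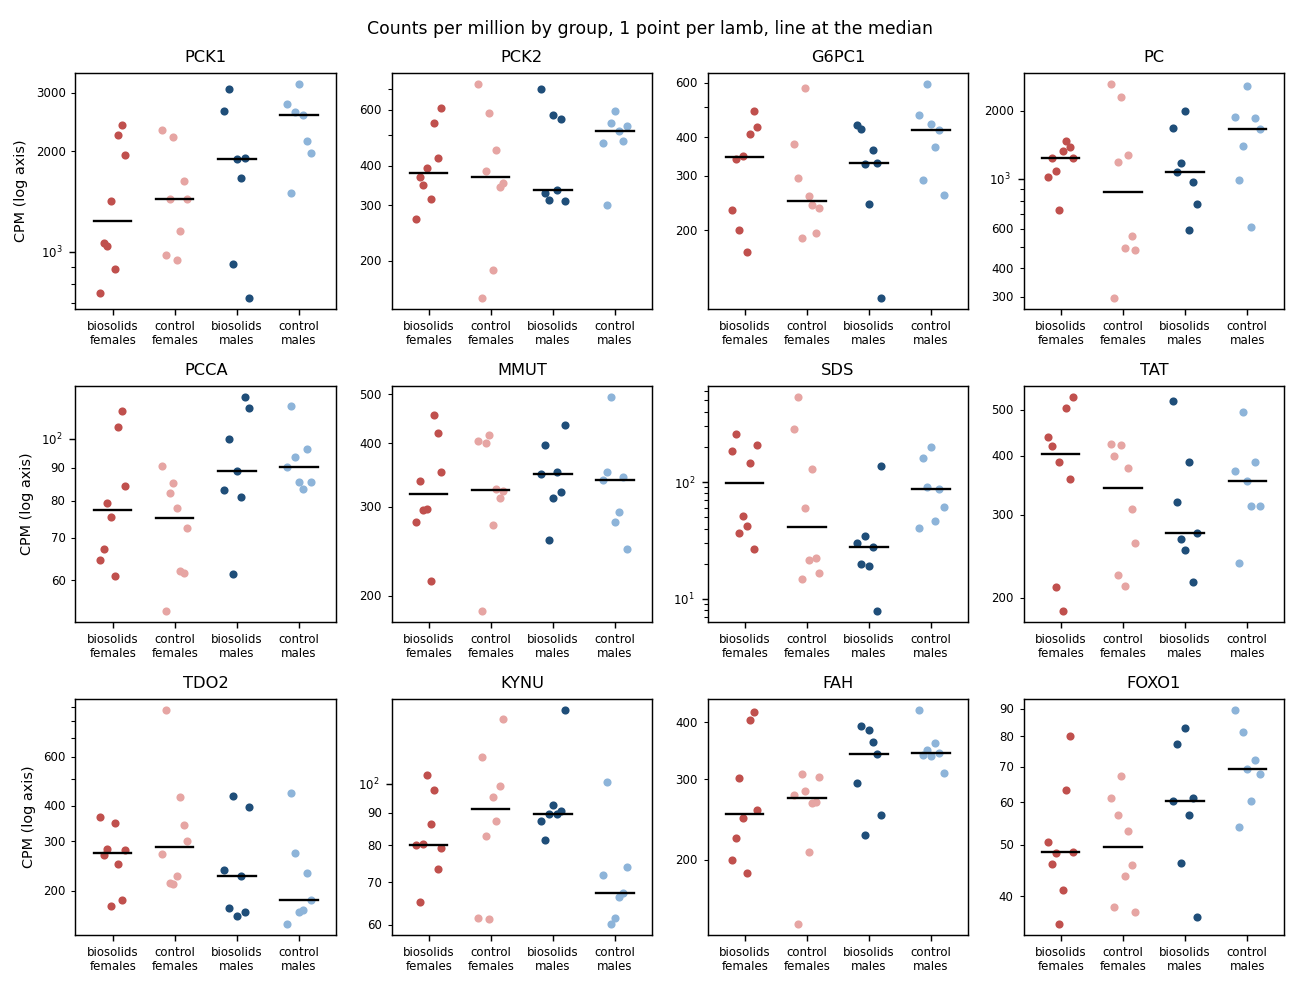
Level in CPM on a log axis for 12 genes, with 1 point per lamb and a black line at the group median; biosolids and control females are in red shades, biosolids and control males in blue shades. In the panel for SDS, 6 of 7 biosolids males lie below the lowest control male, and in that for KYNU all 7 lie above the control male median of 67.4 CPM.

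No gene in the rest of the pathway passed either. In 6 further lists with 88 tested genes (branched-chain amino acid catabolism, cobalamin and cofactor handling, lactate, pyruvate and glycerol handling, other amino acid catabolism, other regulators, and the reversible triose and hexose steps), 0 passed under exposure in females, in males, over both sexes or in the interaction, by edgeR, DESeq2 or voom. In females 44 estimates were higher and 44 lower, with 3 of 88 at an unadjusted p under 0.05, against 3.65% of all genes. In males 32 were higher and 56 lower, with a median of -0.10 and 4 of 88 at an unadjusted p under 0.05, against 5.44% of all genes. Over both sexes 2 of 88 had such a p, against 4.3%, and in the interaction 3 of 88, against 3.63%, so these counts lay near the background. By the 2 smallest p-values per list over both sexes, BCAT2, a branched-chain aminotransferase, had -0.25 ± 0.15 and DLD, the dihydrolipoamide dehydrogenase subunit shared by oxo-acid dehydrogenases, 0.18 ± 0.09. CD320, the transcobalamin receptor, had -0.13 ± 0.12 and MMADHC, a cobalamin trafficking protein, 0.14 ± 0.07. The coactivator PPARGC1B had -0.37 ± 0.20 and the acetyltransferase KAT2A -0.21 ± 0.11. The triose and hexose enzymes PGAM1 and TPI1 had 0.15 ± 0.11 and 0.08 ± 0.09.

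Between the sexes, no gene of the 35 passed either. In control lambs 0 of 35 had an adjusted p under 0.05, against 0.0841% of all genes, and in biosolids lambs 0 of 35, against 0.0953%. At an unadjusted p under 0.05 there were 11 of 35 in controls, but the background was 18.9% of all genes. The smallest adjusted p was 0.213 in controls and 0.969 in biosolids lambs (edgeR quasi-likelihood test). DESeq2 and voom called 0 of the 35 as well. Of the 11, 6 had higher estimates in control males (PCK1, GLDC, FOXO1, FAH, PCCA and PCCB) and 5 lower (MCEE, KMO, TDO2, KYNU and MDH1). Leaving out 1 lamb gave between 6 and 12 such genes. There were 6 without control female 8263, against 13.9% of all genes, and 12 without control female 8245, against 25.2%. The interval lay within -1 to 1 for 29 of 35 genes in controls, against 70.7% of all genes, and for 31 of 35 in biosolids lambs, against 77.3%.

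FOXO1 (chromosome 10, 22150339 to 22242732) had the smallest p between the sexes in controls. It lay between 53.9 and 89.7 CPM in control males (median 69.5) and between 37.3 and 67.4 CPM in control females (median 49.4). All 7 control males lay above the female median, and 5 above the highest female. Males over females gave a log2 fold change of 0.49 ± 0.17 (SE; 95% interval 0.14 to 0.84; unadjusted p = 0.00757, adjusted p = 0.213, edgeR quasi-likelihood test). Biosolids males lay between 36.6 and 82.9 CPM (median 60.5) and biosolids females between 35.5 and 80.1 CPM (median 48.3), with 0.23 ± 0.17. FOXO1 under exposure had 0.03 ± 0.17 in females and -0.23 ± 0.18 in males, or -0.14 ± 0.17 without lamb 8778.

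FAH was the only one of the 35 genes whose control males and control females did not overlap, where 0.213% of all genes did not overlap. It lay between 311 and 426 CPM in control males (median 342) and between 145 and 308 CPM in control females (median 273), with a log2 fold change of 0.45 ± 0.18 (SE; adjusted p = 0.218, edgeR quasi-likelihood test), or 0.35 ± 0.16 without lamb 8263. In biosolids lambs FAH overlapped between the sexes, at 227 to 392 CPM in males (median 342) and 187 to 422 CPM in females (median 252). For none of the 35 did biosolids males and females fail to overlap, against 0.0673% of all genes. For exposure the count was 0 of 35 in males, against 0.0561%, and 0 of 35 in females, against 0%.

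PCK1 had a log2 fold change of 0.66 ± 0.29 between control males and control females (SE, adjusted p = 0.233, edgeR quasi-likelihood test), and all 7 control males lay above the female median. The same difference in biosolids lambs was 0.32 ± 0.28. The 3 genes of tryptophan breakdown, KMO, TDO2 and KYNU, had lower estimates in control males, at -0.71 ± 0.26 (adjusted p = 0.216), -0.63 ± 0.29 (adjusted p = 0.25) and -0.34 ± 0.15 (adjusted p = 0.235, edgeR quasi-likelihood test in each case). Without control female 8263, TDO2 had -0.31 ± 0.26. Their estimates in biosolids lambs were -0.12 ± 0.26, -0.07 ± 0.29 and 0.18 ± 0.15. These comparisons share the control males with the exposure comparison in males, so the positive estimates there and the negative ones here are not independent.

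Cell type markers are set beside the sex contrast in controls as well. Summed stellate cell and fibroblast markers lay between 392 and 590 CPM in control males and between 201 and 345 CPM in control females, with 8 of 8 higher and 4 at an unadjusted p under 0.05, where 18.9% of all genes had such a p. Hepatocyte markers had higher estimates in control males for 8 of 10 (median 0.35, 5 at an unadjusted p under 0.05), and T and NK cell markers lower for 6 of 6 (median -0.42). Control female 8263 had the highest summed T and NK cell markers (90.3 CPM) and macrophage markers (2198 CPM) of all lambs. Its summed hepatocyte markers (66721 CPM) were the lowest of the control females. Endothelial markers had a median of 0.12, macrophage markers -0.27 and cholangiocyte markers -0.10. The summed level of the cholangiocyte markers was 165 to 266 CPM in control males (median 256) and 103 to 178 CPM in control females (median 142). Their part in the sex differences of the 35 genes was not tested.

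**Figure D4:**
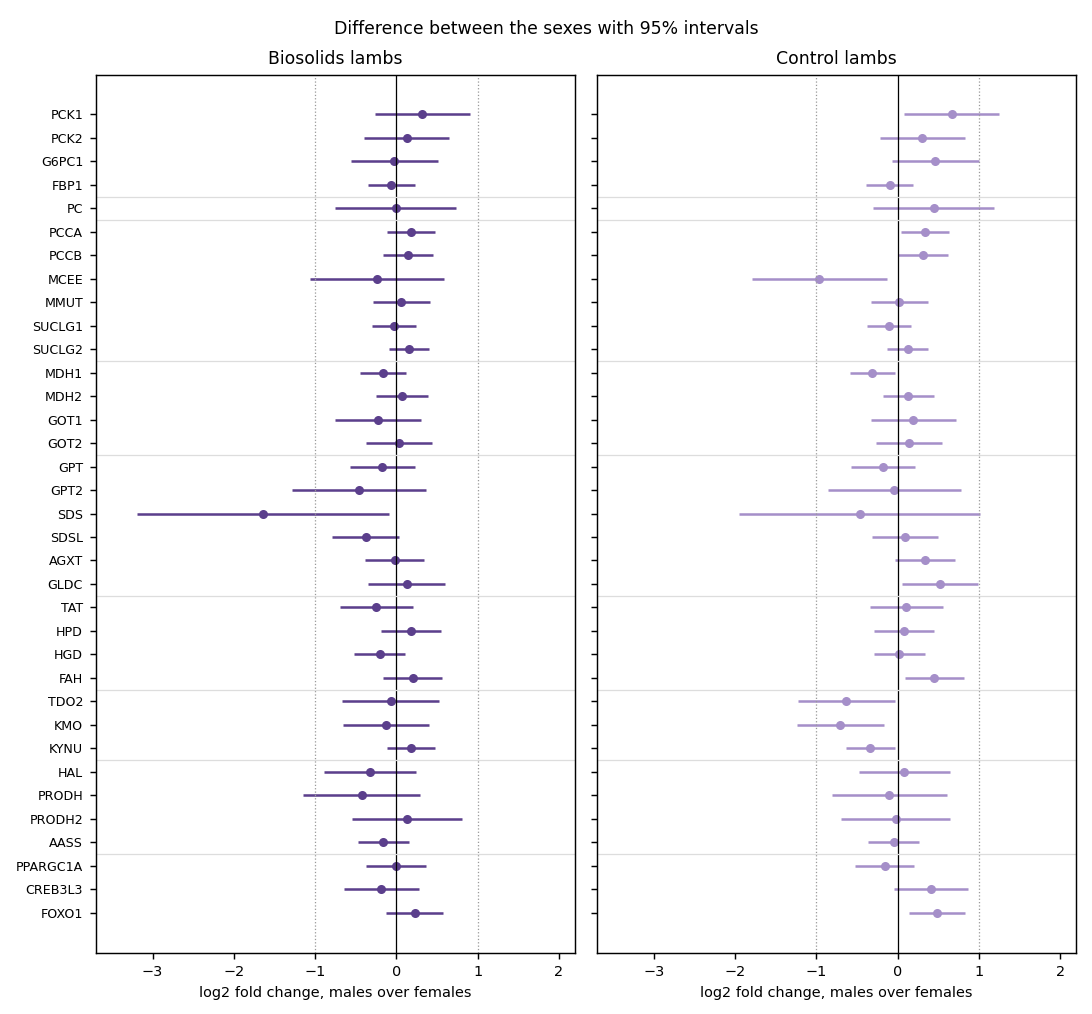
Log2 fold change of males over females for each of the 35 genes, biosolids lambs on the left and control lambs on the right, with 95% intervals from the edgeR fit, and dotted lines at -1 and 1. In control lambs 11 intervals exclude 0, among them FOXO1 at 0.49 and KMO at -0.71, while in biosolids lambs that of SDS at -1.64 does. Of all genes, 18.9% had an unadjusted p under 0.05 in control lambs and 4.85% in biosolids lambs. The intervals are not adjusted for the number of genes, and none of the 35 genes passed an adjusted p of 0.05.

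Several of these genes varied together from lamb to lamb within groups. For 12 chosen pairs, log2 CPM less the group mean was correlated over the 30 lambs, with 100000 permutations within groups and Benjamini-Hochberg adjustment over 24 coefficients. PCK1 and G6PC1 had a Pearson r of 0.730 and a Spearman rho of 0.743 (adjusted p = 0.00016 each), and r was 0.644 without the 2 lambs farthest from the PCK1 median. PCK1 and PCK2 had an r of 0.702 (adjusted p = 0.00018) and a rho of 0.707 (adjusted p = 0.000309), and r was 0.685 without the 2 farthest. PCK1 and FOXO1 had an r of 0.717 (adjusted p = 0.000309) and a rho of 0.696 (adjusted p = 0.00033), with 0.697 without the 2 farthest. These genes of the glucose-forming end were thus high together in the same livers, and they share library, scaling and the cell content of each sample. Pairs of other genes were not correlated, so whether these values exceed those of unrelated genes was not tested.

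PCK1 and PPARGC1A had an r of 0.437 and a rho of 0.450 (adjusted p = 0.0275 each), and 0.463 without the 2 farthest. Those 2 lambs were 8647 and 8778, and the adjusted p without them was 0.0291 by the same permutation test. Without lamb 8778 alone, r was 0.400 and the adjusted p 0.054, so this call lay near the threshold. The r was 0.657 in the 16 females and 0.179 in the 14 males, a difference that was not tested. PCK1 and CREB3L3, with an r of 0.332 (adjusted p = 0.127) and a rho of 0.346 (adjusted p = 0.11), did not pass, and r was 0.198 without the 2 farthest. TAT and PPARGC1A had an r of 0.581 (adjusted p = 0.00254) and a rho of 0.582 (adjusted p = 0.00358), and 0.507 without the 2 farthest.

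Propionyl-CoA carboxylase subunits went together: PCCA and PCCB had an r of 0.671 (adjusted p = 0.00139) and a rho of 0.607 (adjusted p = 0.0042), and 0.601 without the 2 farthest lambs. PCCA and MMUT had an r of 0.733 (adjusted p = 0.00016) and a rho of 0.704 (adjusted p = 0.000309), with 0.753 without the 2 farthest. By contrast the succinyl-CoA ligase subunits SUCLG1 and SUCLG2 had an r of 0.064 (adjusted p = 0.789) and a rho of 0.075 (adjusted p = 0.789), and 0.244 without the 2 farthest. Both ligase subunits were among the 3 steadiest genes.

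Among amino acid enzymes, TAT and SDS had an r of 0.525 (adjusted p = 0.00957) and a rho of 0.570 (adjusted p = 0.00519), and 0.487 without the 2 farthest. The r of TAT and SDS was 0.717 in females and 0.078 in males, and the difference was not tested. TAT and HPD, successive enzymes of tyrosine breakdown, had an r of 0.206 (adjusted p = 0.361) and a rho of 0.188 (adjusted p = 0.403), and 0.091 without the 2 farthest. KMO and KYNU, successive enzymes of tryptophan breakdown, had an r of -0.001 (adjusted p = 0.995) and a rho of -0.022 (adjusted p = 0.956), and 0.040 without the 2 farthest. In all, 8 of 12 pairs passed by both coefficients. PCK1 with PPARGC1A lost its call without lamb 8778 alone, but kept it without lambs 8647 and 8778 together.

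**Figure D5:**
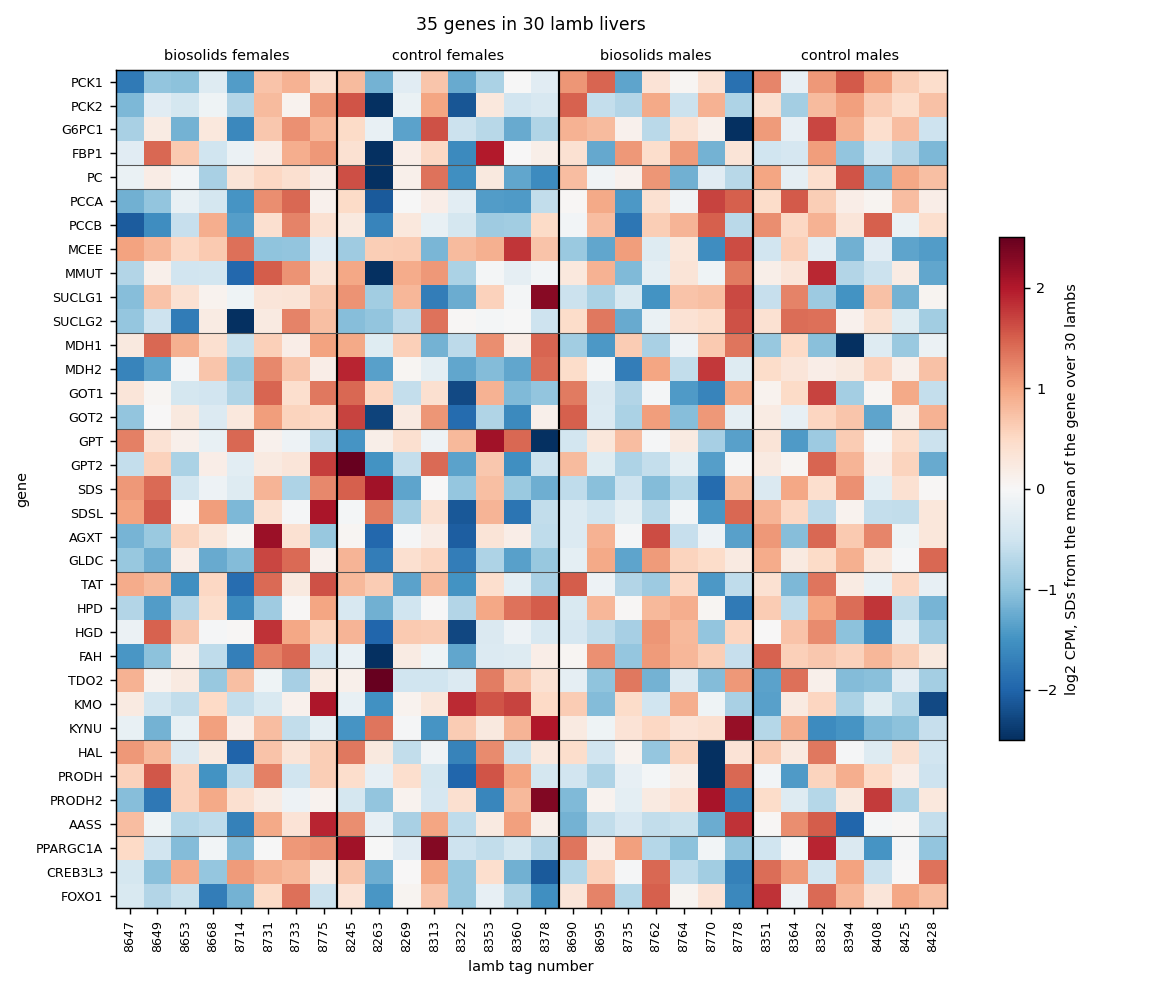
Level of the 35 genes in each of the 30 lambs, as SDs of log2 CPM from the mean of the gene over all lambs; genes run down by role and lambs across by group, with their tag numbers. Red lies above and blue below the mean of the gene, and pale colours lie near it. Control female 8263 has the lowest level for 8 genes, and the row of PCK1 tends to share its red and blue lambs with PCK2 and G6PC1.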

How the data were processed

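Frozen liver of 30 lambs was used; the labels' protocols give TruSeq RNA libraries run on NovaSeq S4. Tools named in the submitters' processing notes are STAR, featureCounts 1.5.0-p3, Trimmomatic, MultiQC and FastQC. The authors deposited whole-number gene counts, not normalized, and per the file headers a length for each gene, used here for RPKM. Use of strand in counting, litter, dam and batch are not given in the sources used here. Lines of 7 genes broken over 25 lines were joined. Symbols and coordinates matched RefSeq ARS-UI_Ramb_v3.0 for all 36 genes.

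Counts were filtered with filterByExpr, scaled by TMM and fitted with robust quasi-likelihood in edgeR 4.0.16 (R 4.3.3), with a mean for each of 4 groups, 26 residual degrees of freedom and a biological coefficient of variation of 35.2%. A gene passed at a Benjamini-Hochberg adjusted p under 0.05 over 17840 genes. CPM and RPKM use TMM-scaled library sizes, and log2 CPM a prior count of 2. Standard errors come from the fold change and F statistic. In a simulation from these lambs (17679 genes), the test for exposure in females found 77 of 100 genes shifted by 1 on the log2 scale and 96 of 100 shifted by 2. In males (17660 genes) it found 73 and 94 of 100. Each simulation shifted 200 genes at once, drawn from genes with a mean of at least 1 CPM. With fewer changed genes the adjusted p is harder to pass, so these shares do not give the power for the listed genes.

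The 36 genes, the lists, the tests and the 12 pairs were chosen with earlier results of these data known. Genes given with full values were the 3 with the smallest p in each comparison, the first enzyme of each route, PCK1, PCK2, G6PC1 and the regulators, and the 2 smallest p of each further list. Other genes were named because their values stood out. DESeq2 1.42.0, RLE scaling, limma 3.58.1 voom with sample weights, no filter, at least 1 CPM in 15 libraries, removal of ribosomal RNA rows, and leaving out each lamb in turn served as alternatives.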

Additional observations from a re-analysis of the deposited data

Results flagged for a closer look

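Within groups, 11 of 140 combinations of gene and group had 1 lamb whose log2 CPM stood far from the others by Dixon's criterion. Chance alone would give about 1 in 20. The 11 fell on 8 lambs.

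Among glucose-forming enzymes, control male 8364 was the lowest for PCK2 (299 CPM, next 471) and control male 8382 the highest for FBP1 (1315 CPM, next 1035). In propionate entry, biosolids female 8647 was the lowest for SUCLG1 (101 CPM, next 118) and control female 8313 the highest for SUCLG2 (297 CPM, next 245). In tryptophan breakdown, biosolids female 8775 was the highest for KMO (231 CPM, next 128), and KYNU was highest in biosolids male 8778 (131 CPM, next 92.7) and in control male 8364 (101 CPM, next 73.9). HAL was lowest in biosolids female 8714 (57.5 CPM, next 113) and in biosolids male 8770 (33.9 CPM, next 88.2). AASS was highest in biosolids male 8778 (74.2 CPM, next 47.3), and PPARGC1A in control male 8382 (45.3 CPM, next 28.8). Both values of lamb 8778 come from the library with 87.5% ribosomal RNA counts.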

How the results depend on the processing

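All 210 results of a gene in a comparison were refitted under 36 alternatives, 30 of which left out 1 lamb. None of the 7560 refits called a gene of the 35, and none turned the sign of the 78 results whose estimate exceeded its standard error. The smallest adjusted p was 0.0558 (FOXO1 between the sexes in controls, voom with sample weights). Over all genes, DESeq2 called 4 for exposure in males, 4 over both sexes, 1 for the interaction and 54 between the sexes in controls. The filter of 1 CPM in 15 libraries left 3 calls between the sexes in controls and 7 in biosolids lambs, and voom gave 57 in controls. Leaving out 1 lamb gave 10 to 23 calls between the sexes in controls (23 without control female 8245, 10 without control female 8360), 12 to 21 in biosolids lambs and 0 under exposure. The share of all genes at an unadjusted p under 0.05 for exposure in males also moved. It was 3.2% without lamb 8778 and 11% without control male 8364. Correlations in males alone lost their call for PCK1 with PCK2 (0.598), PCK1 with PPARGC1A (0.179), TAT with PPARGC1A (0.466), TAT with SDS (0.078), PCCA with PCCB (0.446) and PCCA with MMUT (0.547); the cause was not tested. Without lamb 8778, PCK1 with PPARGC1A had 0.400 and lost its call, SUCLG1 with SUCLG2 had -0.026 and KMO with KYNU 0.066; in females alone SUCLG1 with SUCLG2 had -0.161 and KMO with KYNU 0.059, and KMO with KYNU had 0.040 without the 2 farthest lambs. No paired analysis was possible because the groups share no replicate numbers.

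P-values measure the spread between lambs taken as independent; shared dams are not labelled. Intervals passed 1 log2 unit for 15 of the 35 genes in the interaction, 6 between the sexes in controls, 4 in biosolids lambs, 4 under exposure in males and 1 in females.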

Other observations

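Of the 35 genes, control female 8245 had the highest level of all 30 lambs for 6: PCK2, PC, MDH2, GOT2, GPT2 and HAL. Biosolids male 8770 was the lowest for MCEE, SDS, HAL and PRODH and the highest for PCCA, and biosolids female 8775 was the highest for SDSL, TAT, KMO and AASS. In 8 lambs no gene of the 35 was at either extreme.

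Among protein-coding genes with part of their exonic bases shared with another gene, 28 of 4057 (0.69%) had no count in any library, against 147 of 147 with all exonic bases shared. Of the 147, 103 share them with a gene of the same strand.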
